A study of Mus musculus with 8 samples.

Results

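Chromatin acetylation and methylation enzyme genes were followed through 2 h of BET bromodomain inhibition in 2 mouse B cell lymphoma lines. The members were taken by a rule on gene symbols, set with earlier results of these data known. It covers the lysine demethylase (Kdm), lysine methyltransferase (Kmt2, Kmt5 and Setd), lysine acetyltransferase (Kat) and histone deacetylase (Hdac) genes. The sirtuin (Sirt), DNA methyltransferase (Dnmt) and TET dioxygenase (Tet) genes are also in it. Kdm5c, Kdm5d and Kdm6a were left out of the rule. It found 74 of the 43629 genes in the count table, of which 65 are annotated as protein coding. Of the 74, 60 had enough reads to be tested and 14 did not.

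Acetyltransferases place acetyl groups on histone lysines, and the classical histone deacetylases and the NAD-dependent sirtuins remove them. Bromodomains, such as those of the BET proteins, bind the acetylated lysine, and JQ1 fills that pocket and so displaces BET proteins from chromatin. Histone lysine methylation is written mainly by enzymes with a SET domain and erased by the amine oxidases of the Kdm1 family and by the JmjC dioxygenases. DNA methyltransferases methylate cytosine, and TET dioxygenases oxidise that mark. Genes for several of these enzymes, KMT2D among them, are recurrently mutated in human B cell lymphoma.

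The 8 libraries came from lines #1.1 and #1.2, derived from lymphomas of Eμ-Myc mice, in which the immunoglobulin heavy chain enhancer drives a Myc transgene in the B lineage. All groups therefore share the Myc transgene and the C57BL/6 strain. Early passage cells of each line were cultured for 2 h with 250 nM JQ1 or with DMSO, its vehicle, giving 4 groups of 2 libraries. Each line stands for 1 tumour line, and nothing in the labels says that the 2 libraries of a group were separate cultures, so p-values measure only the spread between these libraries.

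Libraries held 10347453 to 13049877 reads in genes, and the members took 0.510 to 0.554% of them. At these depths 3 reads correspond to 0.228 to 0.287 CPM, the read count scaled to a common library size. All 8 B cell markers checked were detected, Cd79a at 340 to 447 CPM but Ms4a1 at only 1.07 to 8.03 CPM and Blk at 3.14 to 15.1 CPM. The summed level of the 8 was 1207 to 1374 CPM in JQ1 libraries and 1852 to 2018 CPM in DMSO libraries. None of 8 T cell, 5 NK cell or 6 erythroid markers had enough reads to be tested, and Cd3e, Cd3g, Cd4 and Trac were at 0 throughout. The 8 myeloid markers summed to 9.13 to 12.6 CPM with JQ1 and 3.80 to 5.46 CPM with DMSO, Lyz2 and Ly6g being at 0. Of that list only Cd68, at 2.35 to 11.2 CPM, and Itgam, at 0.532 to 1.57 CPM, had enough reads to be tested. The 7 stromal and endothelial markers summed to 18.8 to 24.3 CPM with JQ1 and 87.3 to 98.7 CPM with DMSO. Of that list 5 genes were at 0 and nearly all of the sum was Pecam1, which leukocytes also carry. The part of these shifts in the results below was not tested. Hexim1, a gene known to rise under BET inhibition, had 344 and 329 CPM with JQ1 against 138 and 139 CPM with DMSO in line 1.1, and 315 and 327 CPM with JQ1 against 127 and 128 CPM with DMSO in line 1.2. The DMSO libraries of line 1.1 differed most from each other, with a chi-square per degree of freedom over genes of 4.09, against 1.36 to 2.14 in the other groups.

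The JQ1 effect averaged over both lines was lower for 29 members and higher for 19, and 12 did not pass the threshold of an adjusted p of 0.05. Calls were frequent in these libraries: 62.0% of the 12413 genes tested were called, 30.7% higher and 31.3% lower. Among the members the shares were 80.0% called, 31.7% higher and 48.3% lower. The members had more reads, with a median of 52.5 CPM against 26.7 CPM over all genes tested. With only genes of at least 5 CPM in 2 libraries kept, 6671 of 9675 genes were called. The part of read depth in the members' share was not tested. All tests are edgeR quasi-likelihood F tests, and adjusted p-values are Benjamini-Hochberg values over all genes tested. The median log2 change was -0.09 over the members and 0.00 over all genes tested, and the median size of change was 0.27 against 0.25. Of the members 43 of 60 (71.7%) changed by under 0.5 on the log2 scale, as did 74.0% of all genes tested. Past 2-fold, Sirt1 and Kdm4b were higher, where 3.53% of all genes were, and Hdac9, Hdac7 and Sirt5 were lower, where 5.87% of all genes were. The Sirt5 call rests on 3 to 13 reads a library and was lost in several alternatives. All values are shares of a library's reads, which carry no information on the RNA content of a cell, and fewer cells with a transcript cannot be told apart from less of it per cell.

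**Figure D1:**
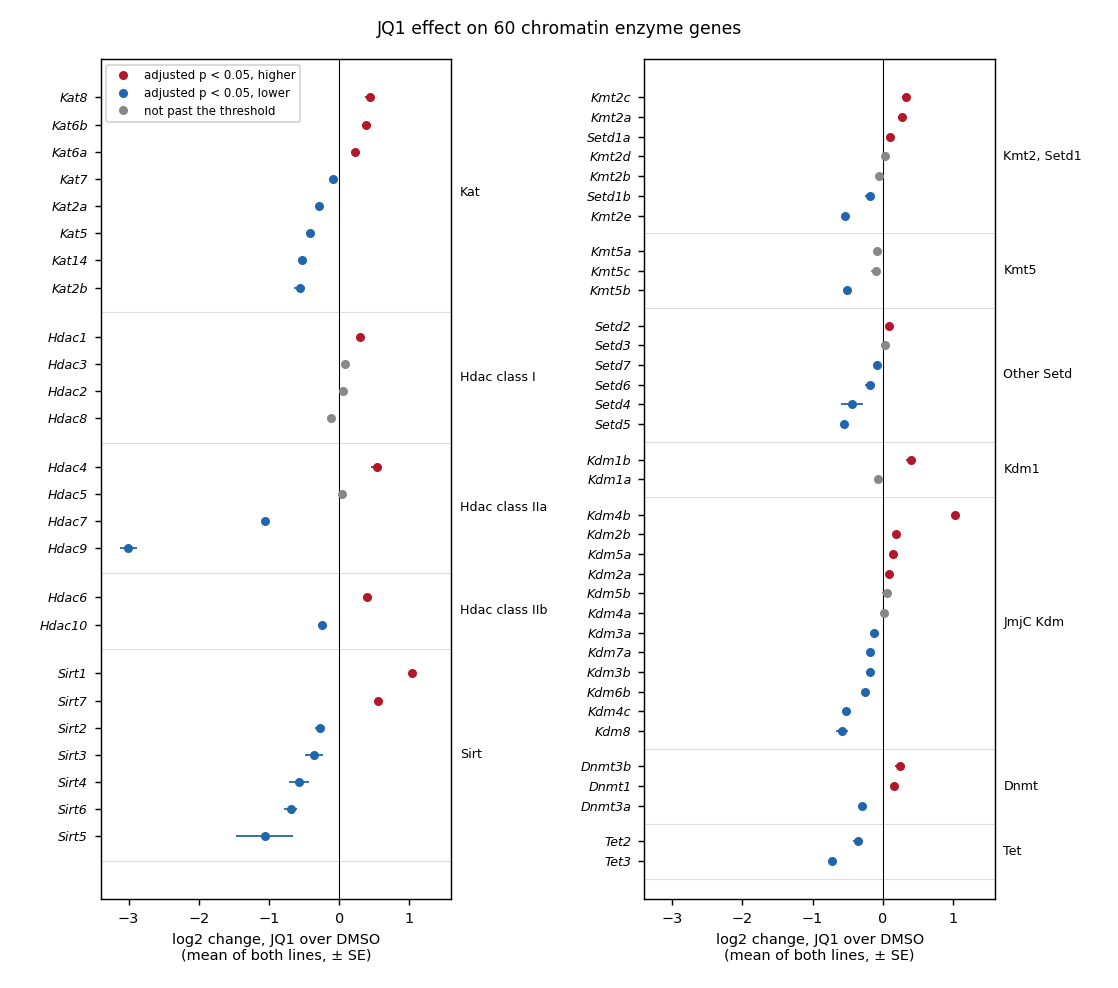
Log2 change with JQ1 over DMSO, averaged over lines 1.1 and 1.2, for the 60 tested members, grouped by enzyme family; bars are ± SE from the edgeR fit and colours give the call. Hdac9 lies farthest to the left at -3.01, and Sirt1 (1.04) and Kdm4b (1.03) farthest to the right.

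The class IIa deacetylases held the largest fall. This class binds MEF2 transcription factors and recruits the NCoR and Hdac3 corepressor, having little deacetylase activity of its own. Hdac9 and Hdac7 fell, Hdac4 rose and Hdac5 did not pass the threshold. Hdac9 (ENSMUSG00000004698; GRCm38 chromosome 12, 34047580 to 34917095, minus strand) had 2.48 and 1.91 CPM with JQ1 against 22.1 and 17.4 CPM with DMSO in line 1.1, and 4.93 and 4.17 CPM with JQ1 against 30.7 and 34.6 CPM with DMSO in line 1.2. Its DMSO level was thus higher in line 1.2 than in line 1.1, and in each line both JQ1 libraries lay far below both DMSO libraries. The log2 change was -3.01 ± 0.12 (adjusted p = 9.88e-17), an 8.03-fold lower level. Hdac7 (ENSMUSG00000022475; chromosome 15, 97792664 to 97844502, minus strand), a repressor used in lymphocyte development, had 34.3 and 35.3 CPM with JQ1 against 73.9 and 89.1 CPM with DMSO in line 1.1, and 54.2 and 51.0 CPM with JQ1 against 96.0 and 97.4 CPM with DMSO in line 1.2. The groups did not overlap in either line, and the log2 change was -1.05 ± 0.054 (adjusted p = 2.55e-14).

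Hdac4 (ENSMUSG00000026313; chromosome 1, 91928779 to 92195699, minus strand) went the other way. It had 22.0 and 19.9 CPM with JQ1 against 13.7 and 14.9 CPM with DMSO in line 1.1, and 19.2 and 17.9 CPM with JQ1 against 12.6 and 13.2 CPM with DMSO in line 1.2, with a log2 change of 0.54 ± 0.076 (adjusted p = 1.46e-06). Of its annotated exon bases, 22.36% are shared with Gm26720 on the opposite strand, and as the strand setting of the counting is not given, reads of the pair cannot be told apart there. Hdac5 had 143 and 141 CPM with JQ1 against 133 and 154 CPM with DMSO in line 1.1, and 146 and 155 CPM with JQ1 against 146 and 138 CPM with DMSO in line 1.2, the groups overlapping in both lines, and a log2 change of 0.04 ± 0.043 (adjusted p = 0.468).

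Levels of different genes were compared as CPM per kilobase of merged exon (RPKM). Hdac5 made up 63.4 to 71.0% of the summed class IIa RPKM in JQ1 libraries, against 47.1 to 53.3% in DMSO libraries. Hdac9 made up 0.577 to 1.28% with JQ1 and 3.61 to 7.08% with DMSO, and Hdac7 22.2 to 30.7% with JQ1 and 38.5 to 43.3% with DMSO. The class as a whole summed to 22.6 to 26.7 RPKM with JQ1, against 28.4 to 33.7 RPKM with DMSO. Within each line the JQ1 sums lay below the DMSO sums.

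The promoter windows of Hdac9 and Hdac4 are shown because the genes moved in opposite directions and the windows differ in CpG content. They are RefSeq windows (GRCm38.p6) from 250 bases before to 50 bases after an annotated start, on the gene's strand. Capitals mark matches to the GC box core GGGCGG, the E-box CACGTG that Myc binds or the TATA element TATAAA, each on either strand. Hdac9 has windows at chr12:34917046-34917345 and chr12:34528840-34529139 with 0 and 3 CpG dinucleotides, and Hdac4 has 1 at chr1:92180292-92180591 with 32. Hdac7, which also fell, has 4 windows, the poorest with 5 CpG and the richest with 35.
Hdac9 window 1: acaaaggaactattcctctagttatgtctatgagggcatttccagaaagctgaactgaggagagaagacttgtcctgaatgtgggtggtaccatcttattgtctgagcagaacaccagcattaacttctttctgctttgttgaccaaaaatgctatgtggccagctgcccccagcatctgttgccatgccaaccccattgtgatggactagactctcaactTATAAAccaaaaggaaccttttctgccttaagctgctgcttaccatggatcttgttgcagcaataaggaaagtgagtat
Hdac9 window 2: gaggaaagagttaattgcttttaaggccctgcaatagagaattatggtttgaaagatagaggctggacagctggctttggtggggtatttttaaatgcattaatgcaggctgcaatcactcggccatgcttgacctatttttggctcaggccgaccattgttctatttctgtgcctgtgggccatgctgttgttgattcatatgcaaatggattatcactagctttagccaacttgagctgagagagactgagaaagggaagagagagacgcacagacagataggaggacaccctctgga
Hdac4 window: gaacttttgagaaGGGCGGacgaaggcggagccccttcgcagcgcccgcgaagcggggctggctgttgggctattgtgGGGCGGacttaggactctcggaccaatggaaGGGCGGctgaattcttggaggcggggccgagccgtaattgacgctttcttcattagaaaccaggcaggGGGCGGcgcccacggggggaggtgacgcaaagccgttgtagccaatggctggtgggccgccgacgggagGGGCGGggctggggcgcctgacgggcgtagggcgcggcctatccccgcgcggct
A window with 0 CpG is found in 5.4% of all 32851 RefSeq windows, and 1 with at most 3 in 31.4%.

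**Figure D2:**
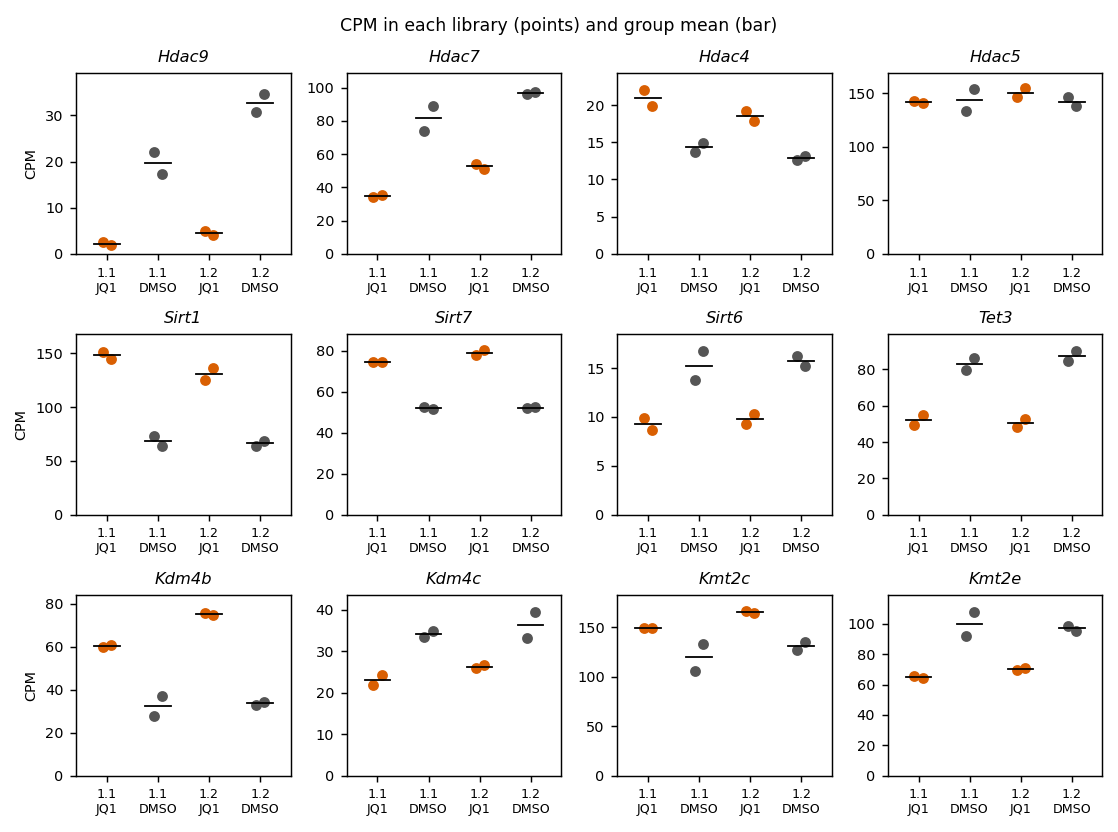
CPM of 12 members in each library (points) with the group mean (bar), by line and treatment, on linear axes from 0. The JQ1 points of Hdac9, Hdac7, Sirt6, Tet3, Kdm4c and Kmt2e lie below the DMSO points of the same line, those of Hdac4, Sirt1, Sirt7, Kdm4b and Kmt2c lie above them, and those of Hdac5 overlap them.

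Class I holds Hdac1 and Hdac2, catalytic subunits of the Sin3, NuRD and CoREST complexes, Hdac3, of the NCoR complex, and Hdac8. Their log2 changes ran from -0.12 to 0.30. Hdac1 alone of the 4 passed the threshold. It had 172 and 169 CPM with JQ1 against 143 and 130 CPM with DMSO in line 1.1, and 161 and 154 CPM with JQ1 against 133 and 126 CPM with DMSO in line 1.2, and its log2 change was 0.30 ± 0.038 (adjusted p = 2.70e-07). Its partner Hdac2 had a log2 change of 0.05 ± 0.037 (adjusted p = 0.247), Hdac3 of 0.08 ± 0.043 (adjusted p = 0.113) and Hdac8 of -0.12 ± 0.058 (adjusted p = 0.0810). In RPKM the class summed to 110 to 117 with JQ1 and 98.4 to 107 with DMSO. Every library thus held more class I than class IIa RPKM.

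In class IIb, Hdac6, a cytoplasmic deacetylase that acts on tubulin, rose. It had 20.7 and 20.6 CPM with JQ1 against 15.1 and 16.3 CPM with DMSO in line 1.1, and 22.2 and 22.4 CPM with JQ1 against 16.7 and 17.0 CPM with DMSO in line 1.2, with a log2 change of 0.40 ± 0.069 (adjusted p = 1.92e-05). Hdac10, which deacetylates polyamines, fell. It had 43.0 and 40.8 CPM with JQ1 against 48.8 and 49.6 CPM with DMSO in line 1.1, and 48.5 and 45.5 CPM with JQ1 against 57.5 and 55.9 CPM with DMSO in line 1.2, with a log2 change of -0.25 ± 0.049 (adjusted p = 9.09e-05). Neither gene overlapped between JQ1 and DMSO within a line. Hdac11, the class IV gene, had too few reads to be tested.

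All 7 sirtuins passed the threshold, as did 62.0% of all genes tested, with Sirt1 and Sirt7 higher and the other 5 lower. The call of Sirt5 rests on few reads. Sirt1 (ENSMUSG00000020063; chromosome 10, 63319005 to 63381704, minus strand), the nuclear deacetylase that also acts on p53, had 151 and 145 CPM with JQ1 against 72.8 and 64.3 CPM with DMSO in line 1.1, and 125 and 136 CPM with JQ1 against 63.9 and 68.9 CPM with DMSO in line 1.2. Every JQ1 library was above every DMSO library, and the log2 change of 1.04 ± 0.045 (adjusted p = 9.63e-16) corresponds to a 2.06-fold rise. Sirt7, a nucleolar deacetylase, had 74.5 and 74.5 CPM with JQ1 against 52.8 and 51.5 CPM with DMSO in line 1.1, and 77.8 and 80.2 CPM with JQ1 against 52.1 and 52.5 CPM with DMSO in line 1.2, a log2 change of 0.55 ± 0.043 (adjusted p = 6.28e-11). Replicates of Sirt7 lay close together in each group.

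Sirt6, a deacetylase of histone H3 at telomeres and active genes, was lower. It had 9.91 and 8.66 CPM with JQ1 against 13.8 and 16.7 CPM with DMSO in line 1.1, and 9.33 and 10.3 CPM with JQ1 against 16.2 and 15.2 CPM with DMSO in line 1.2, a log2 change of -0.69 ± 0.092 (adjusted p = 6.24e-07). The cytosolic Sirt2 had a log2 change of -0.27 ± 0.069 (adjusted p = 0.00162), and the mitochondrial Sirt3 one of -0.36 ± 0.13 (adjusted p = 0.0203). Sirt3 shares 12.72% of its exon bases with neighbouring genes, and its JQ1 and DMSO libraries overlapped in line 1.1. Sirt4, also mitochondrial, had 4.13 and 3.92 CPM with JQ1 against 5.32 and 6.60 CPM with DMSO in line 1.1, and 4.75 and 4.79 CPM with JQ1 against 8.21 and 6.29 CPM with DMSO in line 1.2, a log2 change of -0.57 ± 0.14 (adjusted p = 0.000860). Sirt5, the mitochondrial desuccinylase, was near the floor of detection. It had 0.413 and 0.365 CPM with JQ1 against 0.987 and 0.382 CPM with DMSO in line 1.1, and 0.264 and 0.443 CPM with JQ1 against 0.812 and 0.911 CPM with DMSO in line 1.2, and the groups overlapped in line 1.1. Its log2 change was -1.06 ± 0.40 (adjusted p = 0.0250), and it was called in neither line alone. The call was lost in DESeq2, with Gm42418 as a covariate (-0.45), and without any of 5 single libraries: either JQ1 library or the first DMSO library of line 1.1 (-0.62 without that DMSO library), the first JQ1 library or the second DMSO library of line 1.2.

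The sum of sirtuin RPKM was 49.2 to 54.1 in JQ1 libraries and 37.7 to 38.3 in DMSO libraries. Sirt1 and Sirt7 made up most of it in every library. The ratio of Sirt1 to Sirt6 RPKM was 6.91 to 8.73 with JQ1 and 2.01 to 2.75 with DMSO, so the groups did not overlap.

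The Sirt1 promoter window at chr10:63338986-63339285 is shown for contrast with those of Hdac9. It holds 47 CpG, 2 CACGTG and several GGGCGG matches, a pair of which overlap.
Sirt1 window: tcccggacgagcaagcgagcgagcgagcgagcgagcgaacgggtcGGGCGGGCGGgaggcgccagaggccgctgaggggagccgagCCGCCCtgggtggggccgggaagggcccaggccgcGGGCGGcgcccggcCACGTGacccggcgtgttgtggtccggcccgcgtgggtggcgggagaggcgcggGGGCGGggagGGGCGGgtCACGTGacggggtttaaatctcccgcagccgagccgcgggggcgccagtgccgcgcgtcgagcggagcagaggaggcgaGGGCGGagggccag
At least 2 CACGTG were found in 0.6% of all RefSeq windows, and at least 1 in 7.2%. Kdm4c, a member called lower (log2 change -0.52), also has a window with 2 CACGTG.

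**Figure D3:**
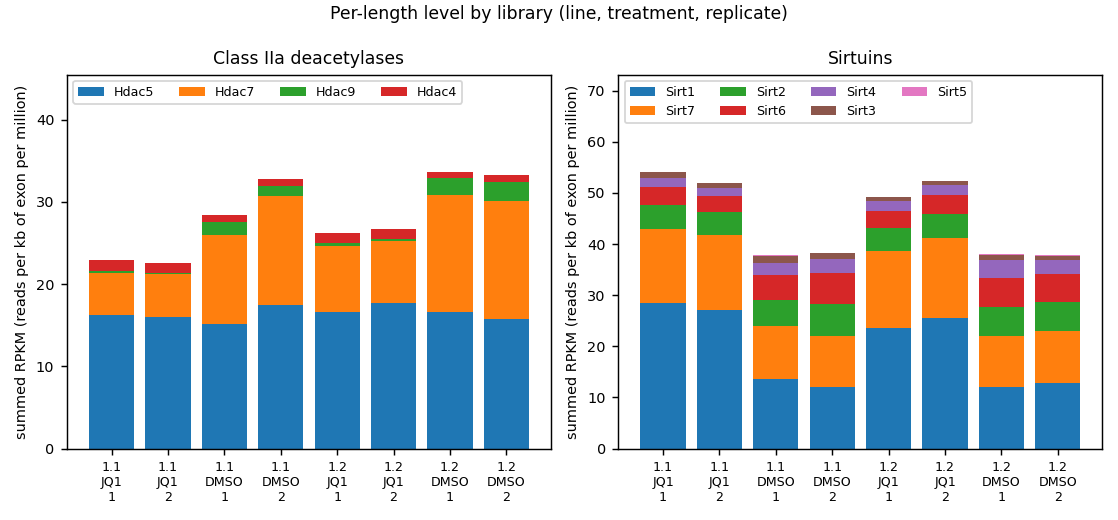
Summed RPKM of the class IIa deacetylases (left) and the sirtuins (right) in each of the 8 libraries, stacked by gene; labels give line, treatment and replicate. The class IIa bars are lower in JQ1 than in DMSO libraries of the same line, with smaller Hdac7 and Hdac9 parts, and the sirtuin bars are higher, with larger Sirt1 and Sirt7 parts.

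All 8 acetyltransferase genes passed the threshold, as did 62.0% of all genes tested. Of the 8, 3 were higher and 5 lower, and none changed by 2-fold. Kat8, the MOF enzyme that acetylates histone H4, rose the most, with 34.5 and 33.6 CPM with JQ1 against 24.5 and 20.7 CPM with DMSO in line 1.1, and 32.7 and 32.3 CPM with JQ1 against 25.6 and 27.3 CPM with DMSO in line 1.2, and a log2 change of 0.44 ± 0.062 (adjusted p = 1.52e-06). Kat6b and Kat6a, paralogous enzymes that act with Brpf subunits on histone H3, were also higher. Kat6b had 26.9 and 27.3 CPM with JQ1 against 19.8 and 19.0 CPM with DMSO in line 1.1, and 28.3 and 28.6 CPM with JQ1 against 23.5 and 22.9 CPM with DMSO in line 1.2, a log2 change of 0.39 ± 0.061 (adjusted p = 6.51e-06). Kat6a had 171 and 177 CPM with JQ1 against 139 and 162 CPM with DMSO in line 1.1, and 174 and 179 CPM with JQ1 against 150 and 151 CPM with DMSO in line 1.2, a log2 change of 0.22 ± 0.041 (adjusted p = 5.27e-05).

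Kat2a and Kat2b, the alternative acetyltransferases of the SAGA and ATAC complexes, and Kat14, an ATAC subunit, were lower. Kat2b had 13.0 and 14.4 CPM with JQ1 against 18.8 and 20.4 CPM with DMSO in line 1.1, and 12.7 and 12.9 CPM with JQ1 against 18.7 and 20.3 CPM with DMSO in line 1.2, a log2 change of -0.56 ± 0.077 (adjusted p = 7.67e-07). Kat14 had 34.2 and 40.7 CPM with JQ1 against 51.8 and 53.7 CPM with DMSO in line 1.1, and 34.2 and 36.7 CPM with JQ1 against 49.7 and 54.1 CPM with DMSO in line 1.2, a log2 change of -0.52 ± 0.057 (adjusted p = 2.28e-08). In neither did JQ1 and DMSO libraries of a line overlap. Kat5, the Tip60 enzyme that is known to act with Myc, had 22.1 and 25.0 CPM with JQ1 against 31.8 and 32.6 CPM with DMSO in line 1.1, and 26.5 and 25.8 CPM with JQ1 against 35.7 and 32.5 CPM with DMSO in line 1.2, a log2 change of -0.42 ± 0.061 (adjusted p = 2.51e-06). It shares 12.14% of its exon bases with Rnaseh2c. Kat2a, the most abundant per length of the family at 42.4 RPKM, had a log2 change of -0.29 ± 0.036 (adjusted p = 1.65e-07). Kat7 had one of -0.09 ± 0.038 (adjusted p = 0.0455).

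Among the Kmt2 and Setd1 genes, which encode the H3K4 methyltransferases, 3 were higher, 2 lower and 2 not called. That is 71.4% called, against 62.0% of all genes tested. Kmt2c, which with Kmt2d places monomethylation at enhancers, had 149 and 149 CPM with JQ1 against 106 and 133 CPM with DMSO in line 1.1, and 166 and 164 CPM with JQ1 against 127 and 135 CPM with DMSO in line 1.2, a log2 change of 0.33 ± 0.048 (adjusted p = 2.42e-06). Kmt2d had a log2 change of 0.04 ± 0.052 (adjusted p = 0.580). Kmt2a, the MLL gene, had 145 and 150 CPM with JQ1 against 109 and 133 CPM with DMSO in line 1.1, and 138 and 144 CPM with JQ1 against 112 and 126 CPM with DMSO in line 1.2, a log2 change of 0.27 ± 0.048 (adjusted p = 3.91e-05), and its paralogue Kmt2b had one of -0.05 ± 0.035 (adjusted p = 0.207). JQ1 libraries of Kmt2c and Kmt2a lay above DMSO libraries within each line.

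Kmt2e, whose SET domain is held to lack methyltransferase activity, fell the most in the family. It had 65.7 and 64.2 CPM with JQ1 against 92.0 and 108 CPM with DMSO in line 1.1, and 69.9 and 71.1 CPM with JQ1 against 98.8 and 95.4 CPM with DMSO in line 1.2, a log2 change of -0.54 ± 0.048 (adjusted p = 5.90e-10), and 9.31% of its exon bases are shared with Srpk2. Setd1a, an enzyme of H3K4 trimethylation, had 78.4 and 72.8 CPM with JQ1 against 72.3 and 76.9 CPM with DMSO in line 1.1, and 73.1 and 78.3 CPM with JQ1 against 66.3 and 66.6 CPM with DMSO in line 1.2. Its groups overlapped in line 1.1, its log2 change was 0.11 ± 0.045 (adjusted p = 0.0441), and 3523 of its 6795 exon bases are shared on the same strand with Gm49388. Its call was lost with any of 5 single libraries left out. The paralogue Setd1b had 46.9 and 47.0 CPM with JQ1 against 53.5 and 64.6 CPM with DMSO in line 1.1, and 42.0 and 49.4 CPM with JQ1 against 49.2 and 45.7 CPM with DMSO in line 1.2, overlapping in line 1.2, with a log2 change of -0.19 ± 0.061 (adjusted p = 0.0102). It was -0.12 without line 1.1 DMSO replicate 2, and -0.13 and no longer called without line 1.2 JQ1 replicate 1.

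The Kmt5 genes encode methyltransferases of H4K20. Kmt5b fell, with 39.8 and 36.9 CPM with JQ1 against 53.7 and 51.6 CPM with DMSO in line 1.1, and 34.8 and 35.7 CPM with JQ1 against 50.9 and 53.4 CPM with DMSO in line 1.2, and a log2 change of -0.51 ± 0.051 (adjusted p = 4.72e-09). Its paralogue Kmt5c had a log2 change of -0.10 ± 0.065 (adjusted p = 0.202), and Kmt5a, the monomethylase and the second most abundant member per length at 51.9 RPKM, had one of -0.08 ± 0.035 (adjusted p = 0.0568).

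Of the other Setd genes 4 were lower, 1 was higher and 1 was not called. Of all genes tested 31.3% were lower and 30.7% higher. Setd5 fell furthest, with 137 and 142 CPM with JQ1 against 203 and 215 CPM with DMSO in line 1.1, and 140 and 140 CPM with JQ1 against 197 and 205 CPM with DMSO in line 1.2, and a log2 change of -0.55 ± 0.035 (adjusted p = 1.60e-12). The values of both lines lay close together. Setd2, the H3K36 trimethylase, had 343 and 366 CPM with JQ1 against 333 and 338 CPM with DMSO in line 1.1, and 326 and 334 CPM with JQ1 against 307 and 309 CPM with DMSO in line 1.2, a log2 change of only 0.09 ± 0.032 (adjusted p = 0.0184). Setd4 had 2.64 and 3.28 CPM with JQ1 against 3.87 and 4.59 CPM with DMSO in line 1.1, and 3.61 and 2.84 CPM with JQ1 against 4.15 and 4.14 CPM with DMSO in line 1.2, with a log2 change of -0.43 ± 0.16 (adjusted p = 0.0232). Setd6, known in human cells to methylate the NF-kappaB subunit RelA, had 21.3 and 24.4 CPM with JQ1 against 28.0 and 26.9 CPM with DMSO in line 1.1, and 27.3 and 25.9 CPM with JQ1 against 30.1 and 26.7 CPM with DMSO in line 1.2, overlapping in line 1.2, with a log2 change of -0.18 ± 0.065 (adjusted p = 0.0188). Setd7 had a log2 change of -0.09 ± 0.036 (adjusted p = 0.0380), and Setd3, a methyltransferase of actin histidine, one of 0.03 ± 0.051 (adjusted p = 0.620). The calls of Setd2, Setd4 and Setd6 were each lost with any of at least 3 single libraries left out.

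Among the demethylases, Kdm4b and Kdm4c, paralogous JmjC enzymes that act on methylated H3K9 and H3K36, moved in opposite directions. Kdm4b (ENSMUSG00000024201; chromosome 17, 56326062 to 56402870, plus strand) had 59.9 and 60.6 CPM with JQ1 against 28.0 and 37.0 CPM with DMSO in line 1.1, and 75.5 and 74.6 CPM with JQ1 against 33.0 and 34.2 CPM with DMSO in line 1.2. Every JQ1 library exceeded every DMSO library, and the log2 change of 1.03 ± 0.060 (adjusted p = 2.85e-13) is a 2.04-fold rise. Kdm4c had 21.9 and 24.3 CPM with JQ1 against 33.4 and 34.9 CPM with DMSO in line 1.1, and 26.0 and 26.6 CPM with JQ1 against 33.2 and 39.5 CPM with DMSO in line 1.2, a log2 change of -0.52 ± 0.065 (adjusted p = 2.05e-07). The Kdm4b to Kdm4c ratio in RPKM was 2.97 to 3.46 with JQ1 and 0.998 to 1.26 with DMSO. Their paralogue Kdm4a had a log2 change of 0.02 ± 0.047 (adjusted p = 0.763).

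Kdm8, a JmjC gene whose product is also described as a hydroxylase, had 11.5 and 13.7 CPM with JQ1 against 18.8 and 21.1 CPM with DMSO in line 1.1, and 12.8 and 14.0 CPM with JQ1 against 20.9 and 17.0 CPM with DMSO in line 1.2, a log2 change of -0.58 ± 0.087 (adjusted p = 3.17e-06). Kdm6b, a demethylase of H3K27, had 29.0 and 31.5 CPM with JQ1 against 33.9 and 39.3 CPM with DMSO in line 1.1, and 30.5 and 30.2 CPM with JQ1 against 36.6 and 35.1 CPM with DMSO in line 1.2, a log2 change of -0.25 ± 0.060 (adjusted p = 0.000745). Both genes were lower with JQ1 in each line without overlap. Kdm2b, which brings a Polycomb complex to CpG islands, had 181 and 172 CPM with JQ1 against 161 and 163 CPM with DMSO in line 1.1, and 190 and 183 CPM with JQ1 against 159 and 154 CPM with DMSO in line 1.2, a log2 change of 0.19 ± 0.035 (adjusted p = 5.50e-05). Kdm5a, a demethylase of H3K4, had a log2 change of 0.14 ± 0.038 (adjusted p = 0.00197), and Kdm2a one of 0.09 ± 0.038 (adjusted p = 0.0321). Kdm3b had one of -0.18 ± 0.036 (adjusted p = 0.000136) and Kdm7a one of -0.18 ± 0.056 (adjusted p = 0.00856). Kdm3b shares 24.6% of its exon bases with Gm26538.

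In the amine oxidase family Kdm1b rose and Kdm1a did not pass the threshold. Kdm1b had 40.2 and 43.0 CPM with JQ1 against 33.3 and 30.1 CPM with DMSO in line 1.1, and 39.7 and 37.0 CPM with JQ1 against 25.1 and 31.9 CPM with DMSO in line 1.2, a log2 change of 0.40 ± 0.066 (adjusted p = 1.00e-05). Kdm1a, the LSD1 subunit of CoREST, had a log2 change of -0.07 ± 0.040 (adjusted p = 0.138).

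Both tested TET genes fell, where 31.3% of all genes tested were called lower, and the DNA methyltransferases divided. Tet3 (ENSMUSG00000034832; chromosome 6, 83362373 to 83459084, minus strand) had 49.2 and 54.8 CPM with JQ1 against 79.7 and 86.3 CPM with DMSO in line 1.1, and 48.3 and 52.8 CPM with JQ1 against 84.5 and 90.0 CPM with DMSO in line 1.2. No JQ1 library reached a DMSO library, and the log2 change was -0.73 ± 0.049 (adjusted p = 4.31e-12). Tet2, a tumour suppressor gene in blood cells, had 17.7 and 18.3 CPM with JQ1 against 21.4 and 25.9 CPM with DMSO in line 1.1, and 23.4 and 20.0 CPM with JQ1 against 28.0 and 26.6 CPM with DMSO in line 1.2, a log2 change of -0.36 ± 0.074 (adjusted p = 0.000192). Tet1 had 0 to 6 reads a library. Summed RPKM of the TET genes was 4.02 to 4.39 with JQ1 and 6.05 to 6.98 with DMSO.

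Dnmt1, the maintenance methyltransferase, was the most abundant member per length, at 79.4 to 96.9 RPKM. It had 655 and 676 CPM with JQ1 against 586 and 652 CPM with DMSO in line 1.1, and 715 and 703 CPM with JQ1 against 607 and 614 CPM with DMSO in line 1.2, a log2 change of 0.16 ± 0.034 (adjusted p = 0.000250). The de novo enzyme Dnmt3b had 22.1 and 23.0 CPM with JQ1 against 20.3 and 20.6 CPM with DMSO in line 1.1, and 22.6 and 24.9 CPM with JQ1 against 20.2 and 17.1 CPM with DMSO in line 1.2, a log2 change of 0.25 ± 0.071 (adjusted p = 0.00384). The other de novo enzyme, Dnmt3a, had 43.3 and 45.2 CPM with JQ1 against 56.1 and 52.3 CPM with DMSO in line 1.1, and 51.5 and 49.1 CPM with JQ1 against 63.9 and 60.5 CPM with DMSO in line 1.2, a log2 change of -0.30 ± 0.048 (adjusted p = 8.33e-06). Reads of Dnmt3b may be shared with its near copy Dnmt3c, which was listed with 0 to 5 reads.

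No untested member had more than 7 reads in a library, and 6 of the 14 had 0 in all 8. Besides Hdac11, Tet1 and Dnmt3c they were Dnmt3l, Kdm4d, Kdm4dl, Kat2b-ps, Kat6b-ps1, Kat6b-ps2, Dnmt3l-ps1, Dnmt3a-ps1 and the antisense genes Dnmt3aos, Dnmt3bos and Kdm6bos. Of the tested members 54 had at least 100 reads in every library. The members were longer than other tested genes, with a median of 6064 against 3988 bases of merged exon, and their median level was 8.85 RPKM, against 6.53 RPKM over all genes tested. The lowest tested members per length were Sirt5 at 0.0939 RPKM and Setd4 at 0.677 RPKM.

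The lines were then taken apart. In line 1.1, 26 of 60 tested members were lower and 14 of 60 higher with JQ1. Of all genes tested, 26.1% were lower and 24.9% higher in that line, 51.0% in all. In line 1.2, 21 of 60 were lower and 17 of 60 higher. Of all genes tested, 25.0% were lower and 24.4% higher there, 49.4% in all. In both lines 19 members were called lower (31.7%) and 13 higher (21.7%), against 20.7% lower and 19.5% higher of all genes tested. No member was called in opposite directions, and 0.0403% of all genes were. Calls in 1 line and not the other were 14 members (23.3%) and 20.1% of all genes. Calls in line 1.1 alone were 7 falls (Kmt2b, Kdm3b, Kat7, Kmt5a, Kdm3a, Setd1b and Setd6) and the rise of Kdm5a. Calls in line 1.2 alone were the rises of Dnmt1, Dnmt3b, Setd1a and Kdm2a and the falls of Sirt3 and Kdm7a. Calls in 1 line do not show that the lines differ, which the interaction tested. JQ1 libraries lay above DMSO libraries in both lines for 18 tested members (30.0%) and 28.8% of all genes, and below in both for 23 members (38.3%) and 29.8% of all genes.

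**Figure D4:**
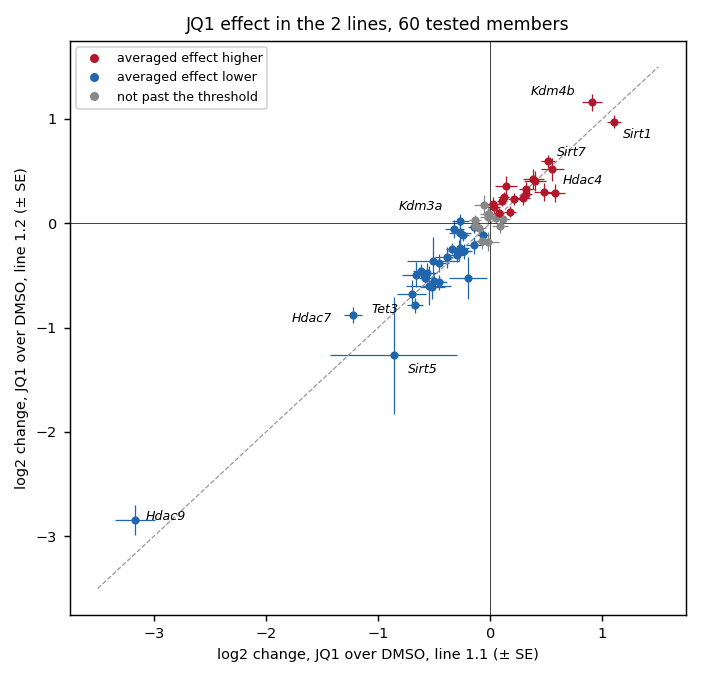
JQ1 over DMSO log2 change in line 1.1 (horizontal) and line 1.2 (vertical) for the 60 tested members, with ± SE bars and a dashed line of equal change. Points lie along the dashed line, from Hdac9 (-3.17 in line 1.1, -2.84 in line 1.2) to Kdm4b and Sirt1.

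No member passed the interaction test, the JQ1 effect in line 1.2 minus that in line 1.1, where 0.113% of all genes did in edgeR. DESeq2 and limma-voom also called 0 members. In edgeR 5 of 60 members had an unadjusted p under 0.05, as did 1000 of all 12413 genes tested, a similar share. The 5 members were Hdac7 (0.34), Kdm3a (0.28), Setd1b (0.27), Kmt2b (0.17) and Kat8 (-0.28). The largest, Hdac7, had an adjusted p of 0.386, and its JQ1 change was -0.88 in line 1.2 and -1.22 in line 1.1. Kdm3a had 92.9 and 111 CPM with JQ1 against 114 and 131 CPM with DMSO in line 1.1, and 170 and 152 CPM with JQ1 against 152 and 166 CPM with DMSO in line 1.2. It was below DMSO in line 1.1 (log2 change -0.27, adjusted p = 0.00521) and overlapped DMSO in line 1.2 (0.02, adjusted p = 0.851).

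The count of 0 did not hold in 1 fit, which left out a DMSO library of line 1.1, the group whose replicates differed most. That fit rests on the 1 DMSO library left in line 1.1 and holds no spread within that group, so it cannot show that the lines differ. With line 1.1 DMSO replicate 1 left out, edgeR called 7 members in the interaction (11.7% of 60), and 459 of all 12771 genes then tested (3.59%). They were Hdac7, Kdm4b, Setd1b, Kdm3a, Kmt2e, Kmt2d and Dnmt1, all with a positive difference of 0.19 to 0.48. Leaving out any of the other 7 libraries gave 0 calls among the members. Without the first DMSO library of line 1.1, Kdm4b changed by 1.16 in line 1.2 and 0.70 in line 1.1, and Hdac7 by -0.88 in line 1.2 and -1.36 in line 1.1.

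In DMSO, line 1.2 minus line 1.1 was higher for 4 of 60 tested members and lower for 2 of 60. Of all genes tested, 3.59% were higher and 3.17% lower, 6.77% in all. Hdac9 differed most, by 0.71 ± 0.10 (adjusted p = 5.96e-05), so that line 1.2 held more of the transcript whose fall with JQ1 was the largest. Kdm3a differed by 0.38 ± 0.072 (adjusted p = 0.00125), Kmt5c by 0.30 ± 0.090 (adjusted p = 0.0431) and Hdac7 by 0.25 ± 0.068 (adjusted p = 0.0248). Lower in line 1.2 were Kdm5b, by -0.38 ± 0.095 (adjusted p = 0.0158), and Setd1b, by -0.31 ± 0.084 (adjusted p = 0.0271). Kdm5b, a demethylase of H3K4, had 28.1 and 31.1 CPM with JQ1 against 28.7 and 33.0 CPM with DMSO in line 1.1, and 28.3 and 25.2 CPM with JQ1 against 22.6 and 24.6 CPM with DMSO in line 1.2, and its log2 change with JQ1 was 0.06 ± 0.067 (adjusted p = 0.439). Kmt5c had 25.5 and 24.7 CPM with JQ1 against 23.5 and 27.7 CPM with DMSO in line 1.1, and 26.7 and 29.0 CPM with JQ1 against 30.3 and 32.5 CPM with DMSO in line 1.2. For Kdm3a, Hdac7, Kdm5b, Kmt5c and Setd1b the line difference lost its call in at least 1 alternative fit, while that of Hdac9 kept it in all that were run.

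The level of Gm42418, a locus that overlaps ribosomal RNA repeats and can report leftover ribosomal RNA, varied between libraries. It was 475 and 493 CPM with JQ1 against 361 and 977 CPM with DMSO in line 1.1, and 1296 and 2644 CPM with JQ1 against 383 and 341 CPM with DMSO in line 1.2. With its log2 level as a covariate, 23 members were lower and 13 higher in the averaged effect, and 33 of the 48 calls were kept. Of all genes 49.9% were called in that fit, 24.8% lower and 25.0% higher, so calls were fewer among all genes too. Calls lost then included those of Dnmt1 (0.10), Dnmt3b (0.17), Kat6a (0.10), Kmt2a (0.13), Setd1a (0.03) and Setd2 (0.07), and Setd1b moved to -0.40. The log2 change of Kmt2c was 0.20 there and kept its call. In line 1.2 both JQ1 libraries had more Gm42418 than both DMSO libraries, so covariate and treatment partly coincide in that line. Over all genes, 6136 were called in line 1.2 without the covariate and 2909 with it. In line 1.1 the numbers were 6334 and 6598.

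Partner genes of these enzymes moved in both directions as well. Of 142 genes in 8 lists, 136 were tested, with 50 lower (36.8%), 47 higher (34.6%) and a median log2 change of 0.00. Over all genes tested 31.3% were lower and 30.7% higher, and the lists that follow hold 10 to 30 tested genes each. Values given for single partner genes are log2 changes averaged over both lines. Among other acetyltransferase genes 4 of 10 were lower and 2 higher (median -0.01). Gtf3c4, a subunit of TFIIIC, had 0.43 ± 0.037 (adjusted p = 3.33e-10), and the nuclear receptor coactivators divided, with Ncoa1 0.15 ± 0.054 (adjusted p = 0.0180) and Ncoa2 -0.41 ± 0.049 (adjusted p = 9.81e-08). Ep300, the p300 enzyme, had -0.23 ± 0.046 (adjusted p = 0.000166), and Naa60 had -0.48 ± 0.048 (adjusted p = 5.79e-09).

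Acetyltransferase complex subunits had 13 of 30 higher and 10 lower (median 0.04). Trrap, the scaffold shared by SAGA and Tip60 complexes, had 183 and 182 CPM with JQ1 against 109 and 122 CPM with DMSO in line 1.1, and 187 and 188 CPM with JQ1 against 107 and 117 CPM with DMSO in line 1.2. The log2 change of Trrap was 0.71 ± 0.041 (adjusted p = 2.06e-13), whereas its partner enzymes Kat2a and Kat5 fell. The Jade paralogues, subunits of Kat7 complexes, diverged, with Jade3 0.80 ± 0.064 (adjusted p = 1.01e-10) and Jade1 -0.70 ± 0.045 (adjusted p = 1.45e-12). Brpf3, a subunit that acts with Kat7, had 0.53 ± 0.057 (adjusted p = 1.73e-08). The SAGA subunit Tada1 had -0.50 ± 0.072 (adjusted p = 1.79e-06), and Ing4 had -0.33 ± 0.064 (adjusted p = 9.55e-05).

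Corepressor subunits of the deacetylases had 10 of 27 higher and 7 lower (median 0.06). The NuRD remodeller Chd4 had 0.38 ± 0.032 (adjusted p = 2.18e-10), and the NuRD subunit Mta3 had -1.14 ± 0.12 (adjusted p = 6.55e-09). Mta3 had 4.54 and 5.11 CPM with JQ1 against 11.2 and 12.1 CPM with DMSO in line 1.1, and 7.22 and 4.88 CPM with JQ1 against 12.2 and 12.3 CPM with DMSO in line 1.2, without overlap in either line. Sap130, a Sin3 subunit, had 0.55 ± 0.044 (adjusted p = 1.26e-10). Both TBL1 subunits of the NCoR complex were lower, with Tbl1xr1 -0.54 ± 0.041 (adjusted p = 4.12e-11) and Tbl1x -0.34 ± 0.036 (adjusted p = 1.17e-08).

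Subunits of the H3K4 methyltransferase complexes had 5 of 12 higher and 5 lower (median -0.05). Wdr82, which targets the Setd1 enzymes, had 0.40 ± 0.036 (adjusted p = 1.19e-09), Rbbp5 0.16 ± 0.041 (adjusted p = 0.00146) and Psip1 0.17 ± 0.036 (adjusted p = 0.000230). Ncoa6, of the Kmt2c and Kmt2d complexes, had -0.62 ± 0.049 (adjusted p = 9.64e-11), Cxxc1, of the Setd1 complexes, -0.34 ± 0.041 (adjusted p = 1.56e-07), and Men1 -0.19 ± 0.045 (adjusted p = 0.000689).

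Of the other histone methyltransferase genes 12 of 23 were lower and 5 higher (median -0.12). Prdm2 rose, with 0.81 ± 0.039 (adjusted p = 5.92e-15), as did Ash1l, with 0.20 ± 0.050 (adjusted p = 0.00139), and the H3K79 enzyme Dot1l, with 0.19 ± 0.034 (adjusted p = 3.20e-05). Lower were Smyd4, with -0.71 ± 0.13 (adjusted p = 3.08e-05), Smyd5, with -0.53 ± 0.042 (adjusted p = 1.08e-10), and the arginine methyltransferase Carm1, with -0.54 ± 0.037 (adjusted p = 5.98e-12). Of the other JmjC genes 4 of 10 were lower and 3 higher (median -0.09). Phf2 fell furthest among those named, with 85.0 and 86.2 CPM with JQ1 against 165 and 171 CPM with DMSO in line 1.1, and 97.4 and 91.9 CPM with JQ1 against 179 and 178 CPM with DMSO in line 1.2, a log2 change of -0.94 ± 0.037 (adjusted p = 1.21e-16). Jmjd1c had -0.40 ± 0.037 (adjusted p = 1.12e-09), Jmjd6 -0.21 ± 0.042 (adjusted p = 0.000148), Jmjd8 0.32 ± 0.079 (adjusted p = 0.00122) and Jmjd4 0.18 ± 0.062 (adjusted p = 0.0164).

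Promoter windows were on file for 53 members, 48 of them tested. Where a gene had several windows, that with the most CpG was used. The median was 28.0 CpG over the 48 members and 23.0 over the 8529 tested genes with a window. It was 33.5 for the 14 members called higher and 23.0 for the 24 called lower. Spearman's rho between CpG count and log2 change was 0.27 over the 48 members, which share these 8 libraries, and it is given as a description. Fewer than 10 CpG were found for 3 members, Setd5 with 1, Hdac9 with 3 and Hdac8 with 6, and for 12.2% of the tested genes. The highest counts, 65 in Kdm7a and 57 in Tet2, were in members called lower, and the next, 56 in Kmt2c, in one called higher.

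The CACGTG motif was found in 5 members (10.4%), namely Sirt1, Hdac5, Kdm4c, Kat5 and Dnmt3a, and in 12.4% of the tested genes. Of these 5 members, 1 was called higher (Sirt1) and 3 lower (Kdm4c, Kat5 and Dnmt3a). GGGCGG, the core of the Sp1 site, was found on either strand in 35 members (72.9%) and in 69.4% of the tested genes. TATAAA was found in 2 members (4.2%), and in 7.7% of the tested genes. In all RefSeq windows the shares were 7.2% for CACGTG, 35.7% for GGGCGG and 13.6% for TATAAA. The members' shares thus lay near those of the tested genes.

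**Figure D5:**
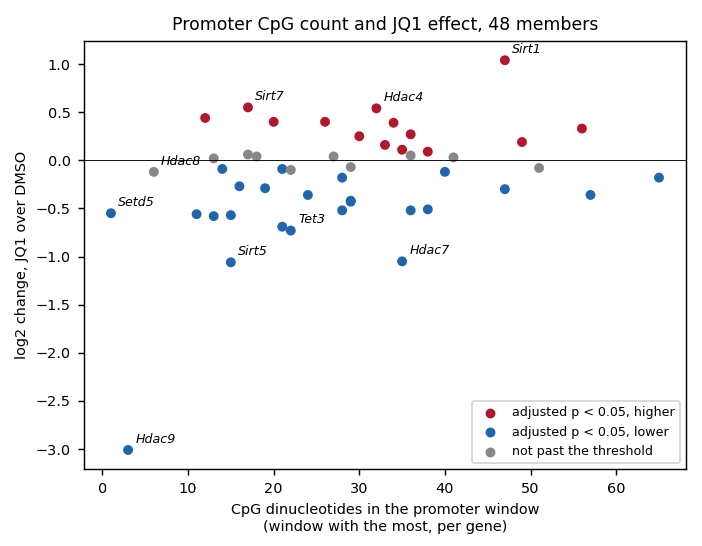
CpG dinucleotides in the promoter window (horizontal, the window with the most for each gene) and log2 change with JQ1 over DMSO averaged over lines (vertical) for the 48 tested members with a window, coloured by call. Hdac9 lies at the lower left with 3 CpG and Sirt1 at the upper right with 47. Hdac7, which fell, has 35 CpG.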

How the data were processed

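RNA-seq libraries were made with a TruSeq RNA kit, per the labels' protocols. The deposited values are raw counts of reads per Ensembl gene, made by the authors with cutadapt 1.7, TopHat, Bowtie2 and HTSeq on GRCm38 (mm10), per the submitters' processing notes. The annotation release and the strand setting were not given in the sources used here. The 5 HTSeq summary lines were left out: 12.33 to 14.40% of reads had no feature and 1.54 to 1.67% were ambiguous. Members, partner lists, motifs and tests were chosen with earlier results of these data known.

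In R 4.3.3, edgeR 4.0.16 (TMM, filterByExpr with a minimum count of 10 and total of 15) tested 12413 genes two-sided in a model of 4 group means over 8 libraries, with 4 residual degrees of freedom. SE is the log2 change over the square root of F. CPM follow TMM, and RPKM use merged GENCODE M21 exons. The fit was tested on simulated data. DESeq2 1.42.0 and limma-voom (limma 3.58.1) were alternatives, with other scalings (RLE, library totals), filters (none, or at least 5 CPM in 2 libraries), a replicate block, a Gm42418 covariate (log2 of CPM + 0.5), fits of only the 4 libraries compared, and each library left out in turn. Members named with full values are up to 3 called higher and 3 lower per family and up to 4 each way between lines, by size of change. From each partner list come up to 3 each way with a mean of at least 1 CPM, and some that this rule names are not reported here. Cell type markers were fixed lists. Intervals cover the spread of these libraries only.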

Additional observations from a re-analysis of the deposited data

How the results depend on the processing

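For the averaged effect, members called lower were 21 to 33 and higher 13 to 19 over the alternatives that kept all 8 libraries, and 23 to 30 lower and 16 to 21 higher with a library left out. For 45 named values 724 alternative values were computed. None reversed, 660 kept their call and 64 lost it. DESeq2 called 17 members lower in line 1.1 (26 in edgeR), and the Gm42418 covariate left 7 higher in line 1.2 (17). Members with a higher interaction were 0 to 7 with a library left out. For line 1.2 minus line 1.1 in DMSO, members higher (4) were 1 in DESeq2, 2 in a fit of only the 4 libraries compared and 1 to 7 with a library left out: 7 without line 1.1 DMSO replicate 2, 2 without line 1.2 DMSO replicate 1 and 1 without replicate 2. Members lower (2) were 0 in DESeq2, 1 with the covariate, 1 in the fit of 4 libraries and 0 to 5 with a library left out: 5 without line 1.1 DMSO replicate 1, 1 without replicate 2 and 0 without either line 1.2 DMSO library. With library totals Setd1a was 0.06 and Setd2 0.05, both no longer called. The cause of these shifts was not tested. Of those differences, Hdac7 was 0.11 without line 1.1 DMSO replicate 1 and 0.38 without replicate 2, Kmt5c 0.17 without replicate 1 and Setd1b -0.18 without replicate 2. For JQ1, Setd1b was -0.12 without line 1.1 DMSO replicate 2, and -0.13, no longer called, without line 1.2 JQ1 replicate 1. Setd1a lost its call (0.08 to 0.11) without replicate 1 of line 1.1 JQ1 or DMSO, line 1.2 JQ1 replicate 2 or either line 1.2 DMSO library. Setd2 lost it (0.07 to 0.08) without replicate 2 of line 1.1 or 1.2 JQ1 or line 1.2 DMSO replicate 1. Setd4 lost it (-0.44 to -0.35) without line 1.1 JQ1 replicate 1, line 1.1 DMSO replicate 2 or replicate 2 of line 1.2 JQ1 or DMSO. Setd6 lost it (-0.16 to -0.13) without line 1.1 JQ1 replicate 1, line 1.2 JQ1 replicate 2 or line 1.2 DMSO replicate 1. Sirt5 lost it (-1.11 to -0.62) without either line 1.1 JQ1 library, line 1.1 DMSO replicate 1, line 1.2 JQ1 replicate 1 or line 1.2 DMSO replicate 2, and in DESeq2 and with the covariate (-0.45). Same-numbered libraries showed little shared deviation (correlations of replicate differences between groups -0.0587 to 0.053), which cannot show whether they were prepared together. With a replicate block 30 members were lower and 19 higher. Calls at the depth of Sirt5 rest on few reads.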

Other observations

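Genes of Polycomb repressive complex 2, which methylates H3K27, included 4 of 9 higher and 1 lower with JQ1 (median log2 change 0.05). That is 55.6% called, against 62.0% of all genes tested, of which 30.7% were higher and 31.3% lower. The accessory subunits divided. Phf1 had 19.9 and 19.4 CPM with JQ1 against 9.11 and 11.2 CPM with DMSO in line 1.1, and 20.0 and 20.7 CPM with JQ1 against 9.75 and 10.8 CPM with DMSO in line 1.2, a log2 change of 0.97 ± 0.083 (adjusted p = 3.11e-10). Phf19 had 15.5 and 16.2 CPM with JQ1 against 39.8 and 43.1 CPM with DMSO in line 1.1, and 18.8 and 17.1 CPM with JQ1 against 46.8 and 44.4 CPM with DMSO in line 1.2, a log2 change of -1.36 ± 0.062 (adjusted p = 2.75e-15). In both genes JQ1 and DMSO libraries did not overlap within a line. The core subunit Suz12 had a log2 change of 0.18 ± 0.032 (adjusted p = 4.08e-05) and Jarid2 one of 0.18 ± 0.044 (adjusted p = 0.000851).

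Partners of DNA methylation and demethylation had 7 of 15 lower (46.7%) and 5 higher (33.3%), with a median of -0.14. Of all genes tested 31.3% were lower and 30.7% higher. The stress genes Gadd45a and Gadd45b, described as partners of DNA demethylation, rose. Gadd45b had 20.2 and 18.4 CPM with JQ1 against 3.87 and 4.49 CPM with DMSO in line 1.1, and 14.3 and 14.9 CPM with JQ1 against 5.78 and 6.21 CPM with DMSO in line 1.2, a log2 change of 1.75 ± 0.099 (adjusted p = 1.59e-13). Gadd45a had 6.36 and 7.75 CPM with JQ1 against 2.05 and 3.06 CPM with DMSO in line 1.1, and 6.78 and 7.36 CPM with JQ1 against 1.90 and 1.99 CPM with DMSO in line 1.2, a log2 change of 1.67 ± 0.16 (adjusted p = 2.10e-09). Their paralogue Gadd45g had one of -0.82 ± 0.18 (adjusted p = 0.000313). Zbtb38 and Zbtb4, which encode methyl-CpG binding zinc finger proteins, were lower. Zbtb38 had -1.43 ± 0.081 (adjusted p = 1.68e-13) and Zbtb4 -1.09 ± 0.12 (adjusted p = 1.50e-08). Idh1, whose product makes the 2-oxoglutarate that TET and JmjC enzymes use, had 0.80 ± 0.10 (adjusted p = 2.47e-07).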
